A study of Mus musculus with 8 samples.

Results

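FGFR1 peaks from mouse embryonic stem cells (ESCs) kept in leukemia inhibitory factor (LIF) were divided by the nuclear receptors found at the same place. The list held 11378 FGFR1 peaks, of 176687 peaks in the 8 deposited lists. A peak was put in a class by a shared stretch of at least 1 bp with the RXR list (30586 peaks) and the Nur77 list (22651 peaks) from the same culture state. In this way 3866 FGFR1 peaks overlapped both receptors, 2059 overlapped RXR only, 1162 overlapped Nur77 only and 4291 overlapped neither. The class was fixed by these overlaps, so the overlaps themselves are not a result.

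FGFR1 is a receptor tyrosine kinase for fibroblast growth factors that is also found in the nucleus, where it associates with chromatin and with the coactivator CBP. RXR is the retinoid X receptor, the common partner of many nuclear receptors, and Nur77 (Nr4a1) is an orphan nuclear receptor that binds DNA alone or as a dimer with RXR. Nuclear receptors recognise variants of the word AGGTCA, and the Nur77 response element carries it with extra A bases in front. LIF holds mouse ESCs in the self-renewing state, and retinoic acid (RA) starts their differentiation.

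All cells were the E14Tg2a line at passages 37 to 40, with chromatin pooled from several plates. The LIF group comprised 1 library each for FGFR1 (Abcam antibody), RXR (titled RXRα) and Nur77. Libraries from neuronal cells (NCs), made by withdrawing LIF and adding 1 µM RA for 48 h, were used only to look for the LIF peaks again. They were 2 FGFR1 libraries and 1 each for RXR, Nur77 and the histone variant H3.3. With 1 library per factor in LIF there was no replicate error for the classes, no test was possible and no p-value was computed. Exact Clopper-Pearson intervals at 95% accompany shares and cover counting error only. Peak lists hold no expression values, so the cell type could not be checked against markers.

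Facts about the libraries bear on all of the classes. The deposited values imply a background density, in fragments per kb, of 2.71 in the FGFR1 library, 7.09 in the RXR library and 4.98 in the Nur77 library. The inferred depth thus differed between the 3 libraries, and its effect on how easily a peak was called was not tested. The deposited fold is the fragment pileup at the summit over the local background, each with 1 added. The deposited −log10 p belongs to the same summit. The median FGFR1 peak rested on 11 fragments, so a missing receptor peak means only that none was called at this depth. FGFR1 RA replicate 2 stood apart from the other lists. Its peaks were wider (median 311 bp against 89 bp in replicate 1), 84.4% lay at promoters, and 1.26% held an alternating purine-pyrimidine run of 20 bp or more, against 21.1% in replicate 1. Each RA result is therefore given for both libraries.

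Such runs, mostly of CA repeats, were present in 51.7% of the FGFR1 LIF peaks. These peaks, called tract peaks here, were kept apart throughout. The strongest tract peaks of 3 classes are shown by a window centred on the FGFR1 summit (mm10, plus strand), because the sequence is what these peaks have in common. Capitals mark the longest alternating run inside the window, which can continue past its edge.
Both, chr2:31239346-31239446, intergenic near Ncs1: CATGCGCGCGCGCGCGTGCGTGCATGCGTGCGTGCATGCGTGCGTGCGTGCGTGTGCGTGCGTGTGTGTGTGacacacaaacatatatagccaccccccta
RXR only, chr2:6088552-6088652, intergenic: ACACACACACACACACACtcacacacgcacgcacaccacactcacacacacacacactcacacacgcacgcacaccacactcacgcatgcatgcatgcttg
Neither, chr7:130385878-130385978, in an intron of Fgfr2: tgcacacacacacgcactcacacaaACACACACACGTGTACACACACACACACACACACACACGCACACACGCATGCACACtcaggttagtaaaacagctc
The "both" example is rich in CG and the other 2 are largely CA repeats. Their FGFR1 −log10 p was 215 for "both", 111 for RXR only and 75.3 for neither. The "both" peak was far weaker in the receptor lists, at 12.5 for RXR and 31.1 for Nur77.

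Tract-free peaks carried no such run, and the promoter examples chosen for 3 classes show the sequence they had instead. The first is the strongest promoter peak of the "both" class with the cyclic AMP response element (CRE) word TGACGTCA, chosen after the word counts were seen. The next 2 are the strongest of their class with a protein-coding start within 100 bp, leaving out windows over untranslated exons. Capitals mark a CRE word in Ranbp6, the CCAAT word (either strand) in Sumf2, and AGGTCA in 2010111I01Rik.
Ranbp6, both, chr19:29812981-29813081: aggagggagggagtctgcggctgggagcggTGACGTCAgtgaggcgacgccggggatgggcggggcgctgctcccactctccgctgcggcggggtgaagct
Sumf2, RXR only, chr5:129846869-129846969: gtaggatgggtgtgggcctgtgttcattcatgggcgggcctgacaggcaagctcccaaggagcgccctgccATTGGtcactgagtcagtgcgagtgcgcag
2010111I01Rik, neither, chr13:63272765-63272865: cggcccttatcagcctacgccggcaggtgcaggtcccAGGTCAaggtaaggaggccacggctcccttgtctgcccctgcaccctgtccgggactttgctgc
All 3 summits lay within 100 bp of a protein-coding start, with the summit 57 bp upstream at Ranbp6, 67 bp upstream at Sumf2 and 1 bp upstream at 2010111I01Rik. Their FGFR1 −log10 p was 13.3, 21.01 and 25.2 in the same order. Ranbp6 had −log10 p values of 11.9 for RXR and 14.7 for Nur77, and Sumf2 had 12.9 for RXR.

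Overlap with both receptors and overlap with neither were the largest classes. The "both" class held 34.0% of the FGFR1 peaks (33.1 to 34.9), RXR only 18.1% (17.4 to 18.8), Nur77 only 10.2% (9.66 to 10.8) and neither 37.7% (36.8 to 38.6). The lists differ in size, and with 11378 peaks in each of the 3 lists "both" fell to 21.8% and neither rose to 54.6%. Tracts were less frequent in the RXR only class, at 34.6% (32.6 to 36.7), than in the "both" class at 55.8% (54.2 to 57.4), the Nur77 only class at 62.0% (59.2 to 64.8) or the neither class at 53.5% (52.0 to 55.0). RXR only was lowest in tract share under each of the 6 alternatives tried, while the order of the other 3 classes changed in 5 of them.

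**Figure D1:**
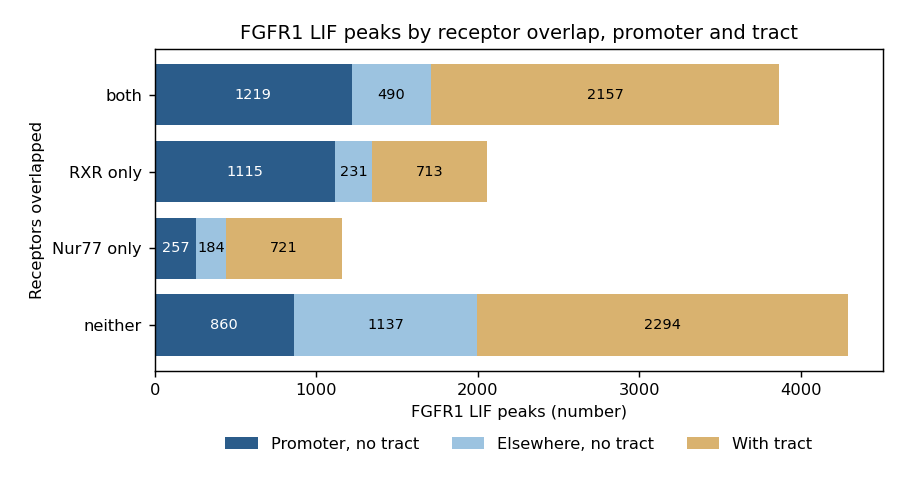
Number of FGFR1 LIF peaks (horizontal axis) in each of the 4 receptor classes, divided into promoter peaks without a tract, other peaks without a tract, and peaks with a tract. Promoter peaks made up the greater part of the tract-free RXR only peaks (1115 of 1346), while tract-free neither peaks lay mostly elsewhere (1137 of 1997).

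Promoters, taken as 1000 bp either side of any GENCODE M21 transcript start, held most tract-free peaks that shared a receptor. Of the tract-free peaks, 82.8% (80.7 to 84.8) of RXR only, 71.3% (69.1 to 73.5) of "both", 58.3% (53.5 to 62.9) of Nur77 only and 43.1% (40.9 to 45.3) of neither lay there. These 4 intervals did not overlap. RXR only remained the class with the highest share under all 9 alternatives tried. The place of the "both" class was not stable: it fell to 52.5%, below the 56.2% of neither, when all 3 LIF lists were limited to a −log10 p of at least 10, and it rose to 85.5% without chromosome M and peaks over 50% repeat-masked. Tract peaks lay at promoters in 8.56% (RXR only), 6.44% ("both"), 5.93% (neither) and 5.27% (Nur77 only) of cases. Nearly all tract-free promoter peaks that shared a receptor had a protein-coding start among those within reach, from 92.6% in Nur77 only to 96.5% in RXR only, and 90.9% did in neither.

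At promoters, FGFR1 summits of every class lay close to the start. The median summit was 16 bp downstream of the nearest start in "both", 20 bp in RXR only, 17 bp in Nur77 only and 19 bp in neither. Within 250 bp of a start lay 87.0% of the "both" summits, 88.3% of RXR only and 82.1% of Nur77 only, but 72.1% of neither. The median GC content of the 501 bp around the summits was 66.1%, 66.7%, 63.5% and 62.5% in the same order, so all classes of promoter peak were GC rich. Off promoters it was between 49.9% (neither) and 54.2% ("both").

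FGFR1 peaks with both receptors were the strongest in each kind of place. At promoters the median FGFR1 −log10 p was 11.2 (quartiles 9.08 and 14.5) for "both", 10.1 for RXR only (8.61 and 12.7), 9.93 for Nur77 only (8.34 and 12.3) and 9.55 for neither (8.19 and 11.4). The corresponding median folds were 7.20, 6.75, 6.65 and 6.37. The quartile ranges of the classes overlapped at promoters, and the shift was small. Off promoters "both" reached 16.1 (10.8 and 28.3), against 10.0, 10.3 and 9.40 for the other 3 classes. Among tract peaks the medians were 19.9 for "both", 13.9 for RXR only, 13.3 for Nur77 only and 12.4 for neither, with median folds of 11.05, 8.43, 8.26 and 7.85. Over all tract-free peaks the median was 11.8 for "both", 10.1 for RXR only, 10.1 for Nur77 only and 9.46 for neither, and "both" stayed highest and neither lowest under all 4 alternatives tried.

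**Figure D2:**
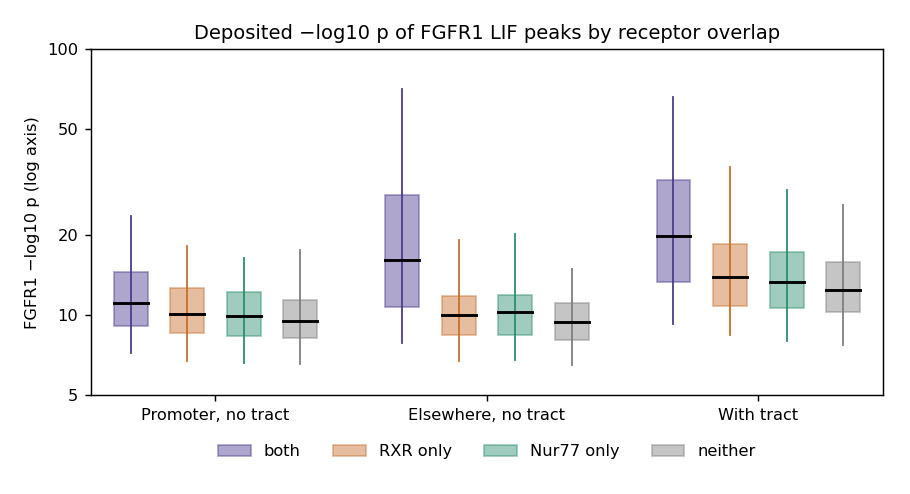
Deposited FGFR1 −log10 p (log axis) of each receptor class in LIF, for promoter peaks, other peaks without a tract and tract peaks. Lines are medians, boxes quartiles and whiskers the 5th and 95th percentiles over peaks; the "both" median was 11.2 at promoters, 16.1 elsewhere and 19.9 with a tract, and the other classes sat between 9.40 and 13.9.

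The same pattern appeared when peaks were put in 4 equal groups by FGFR1 −log10 p. At promoters the share of "both" went from 25.03% (22.2 to 28.1) in the weakest group to 49.6% (46.2 to 53.0) in the strongest, and the share of neither went from 33.0% to 14.4%. RXR only stayed between 30.2% and 34.8% in all groups. Off promoters "both" went from 7.83% to 59.5%, and with a tract from 18.4% to 67.2%. A weak FGFR1 peak was thus more often one without a called receptor, and the part that calling depth had in this was not tested.

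Off promoters, the "both" peaks were the strongest and also the most often in repeats. Of these 490 peaks, 58.8% were repeat-masked over more than 50% of their length, against 31.2% in RXR only, 46.2% in Nur77 only and 24.01% in neither. The word CAGGCAGG, from a tetranucleotide repeat, was found in 24.5% (20.7 to 28.5) of them, against 6.93%, 8.15% and 4.75% in the other classes in that order. Both features were chosen after their values were seen. The word was sought in the whole peak. Median widths of these peaks were 180, 128, 122.5 and 116 bp in the order both, RXR only, Nur77 only and neither. The part that peak width had in the share with the word was not tested. A −log10 p of at least 20 was reached by 38.0% of the "both" peaks and by 2.37% to 5.43% of the others. The strongest tract-free peaks off promoters show the repeat in RXR only and Nur77 only and not in "both". The neither peak chosen by the same rule, which is not shown, also held the repeat. The same kind of window is given, with CAGG units on either strand in capitals.
Both, chr11:109011934-109012034, intergenic: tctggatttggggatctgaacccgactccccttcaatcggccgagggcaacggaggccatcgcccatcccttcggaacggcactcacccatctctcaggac
RXR only, chr7:111824805-111824905, intergenic: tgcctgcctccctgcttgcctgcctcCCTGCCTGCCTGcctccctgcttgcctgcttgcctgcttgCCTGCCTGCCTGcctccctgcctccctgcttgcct
Nur77 only, chr3:79828632-79828732, in an intron of Tmem144: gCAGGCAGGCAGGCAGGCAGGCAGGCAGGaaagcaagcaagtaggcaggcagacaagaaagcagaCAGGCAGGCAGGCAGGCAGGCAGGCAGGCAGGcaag
The "both" peak had −log10 p values of 152 for FGFR1, 115 for RXR and 93.4 for Nur77, and its summit lay 1 bp from that of RXR and 8 bp from that of Nur77. It shared no word of 24 bases with the ribosomal RNA region on chromosome 17, but a match to other ribosomal RNA sequence was not tested, so its place among single-copy sites is uncertain. The repeat peaks had FGFR1 values of 33.3 (RXR only) and 37.4 (Nur77 only). The part that repeats had in the strength of this class off promoters was not tested. All 7 FGFR1 peaks on chromosome M also fell in "both", and all 7 counted as promoter peaks.

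Among "both" peaks, the −log10 p values of the 3 factors ran together across peaks, but only weakly at promoters. Spearman's rho across 1219 promoter peaks was 0.20 between FGFR1 and RXR, 0.19 between FGFR1 and Nur77, and 0.23 between the receptors. Across 490 peaks off promoters the values were 0.71, 0.71 and 0.79, and across 2157 tract peaks 0.47, 0.47 and 0.56. Peaks are not independent replicates, and the 3 lists share the genome's repeat content.

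Seen from the receptors, FGFR1 was found more often where RXR and Nur77 were together. At promoters FGFR1 was present at 36.7% (35.1 to 38.3) of the tract-free RXR peaks that also overlapped Nur77 and at 12.5% (11.8 to 13.2) of those that did not. For Nur77 peaks the shares were 35.2% (33.6 to 36.8) with RXR and 11.1% (9.94 to 12.4) without. Off promoters the same shares were 32.3% against 2.81% for RXR peaks and 31.3% against 2.97% for Nur77 peaks. RXR promoter peaks with FGFR1 and Nur77 also had a higher median RXR −log10 p than those with Nur77 alone (12.0 against 10.4), so peak strength moved with the overlap and its part was not tested.

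Summits of overlapping peaks lay close to each other. At promoters the median distance from the FGFR1 summit was 46 bp to RXR (quartiles 20 and 92 bp) and 45 bp to Nur77 (18 and 85.5 bp) in "both". It was 44 bp to RXR (20 and 87 bp) in RXR only and 39 bp to Nur77 (19 and 67 bp) in Nur77 only. The median between the receptors was 51 bp there (20 and 105.5 bp). Receptor peaks were paired by overlap with, and nearness to, the FGFR1 peak, so this distance is not on equal terms with those to FGFR1. The 95% interval of the Nur77 only median (from ranks), 34 to 46 bp, overlapped that of the FGFR1 to Nur77 distance in "both", 41 to 51 bp. Off promoters the "both" medians were shorter, at 25 bp (RXR) and 23 bp (Nur77), with 19 bp between the receptors, against 39 bp for both single-receptor classes. With a tract all medians were between 17 and 22 bp, and the shortest was the 17 bp between the receptors. Distances are limited by peak width and by the few fragments under a summit, and the part that these had in the medians was not tested.

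**Figure D3:**
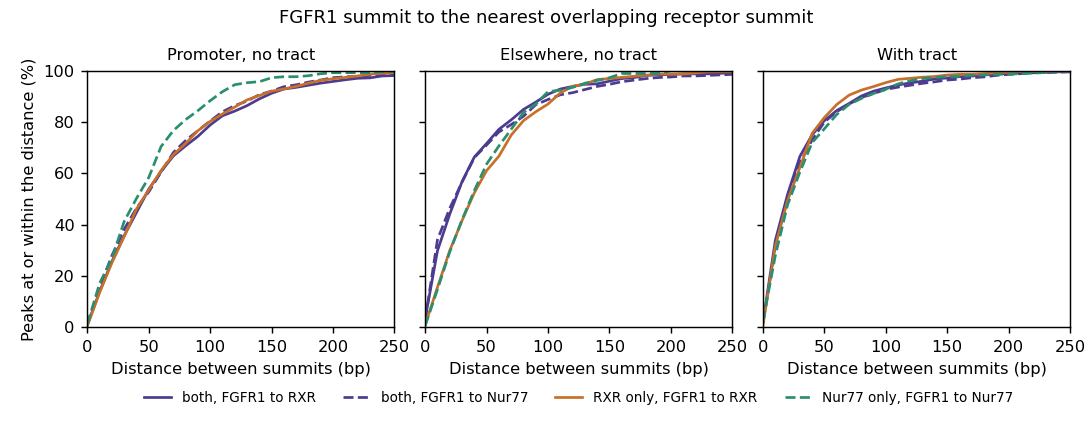
Share of FGFR1 LIF peaks (vertical axis, %) whose nearest overlapping receptor summit lies at or within a distance in bp (horizontal axis), by class, for promoter peaks, other peaks without a tract, and tract peaks. At 50 bp the curves stand at 52.7% to 58.4% at promoters and at 77.4% to 81.8% with a tract.

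All 3 peaks shared at least 1 base in 3760 of the 3866 "both" peaks, or 97.3%. Among the 1189 tract-free promoter triples with 3 separate summit positions, FGFR1 was in the middle in 38.3%, Nur77 in 33.0% and RXR in 28.8%. Each receptor peak had to overlap the FGFR1 peak, and of several the one nearest the FGFR1 summit was taken. The 3 factors were therefore not on equal terms, and the effect of this rule was not tested. In tract triples the shares were 32.6% for FGFR1, 31.9% for Nur77 and 35.5% for RXR.

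The boundary of the neither class was soft at promoters only. A called receptor peak lay within 1000 bp of 396 of the 860 tract-free promoter peaks of the class (46.0%), but of 9.85% of those elsewhere and 7.15% of those with a tract. Just outside the boundary, 157 of the 4291 neither peaks (3.66%) had a receptor peak within 50 bp. Just inside it, 94 of the 5925 overlaps with RXR and 79 of the 5028 with Nur77 were under 20 bp long. The longest run was 20 to 23 bp in 359 peaks and 16 to 19 bp in 347, so few peaks sat near the tract limit.

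Tract peaks of the classes differed in the length and make-up of their run. The longest run had a median of 61 bp in "both", 43 bp in RXR only, 43 bp in Nur77 only and 37 bp in neither. The FGFR1 summit lay inside the run in 59.9%, 52.3%, 53.5% and 48.1% of them. At least 1 CG step was present in 77.2% of the "both" runs and 75.2% of the Nur77 only runs, and in 65.5% of RXR only and 58.0% of neither. Runs of CA and TG for at least 80% of their length were more frequent in RXR only and neither, at 74.2% each, than in "both" (61.8%) and Nur77 only (63.8%). Runs were sought only inside the called peak. Median tract peak widths were 178, 136, 136 and 121 bp in the order both, RXR only, Nur77 only and neither. The part that peak width had in these class differences was not tested. Alternating runs with CG steps are known for their ability to take up left-handed DNA.

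Words for known factors were counted on either strand in such windows around promoter summits, beside the same windows around 132665 transcript starts. TGACGTCA, the word bound by CREB and its relatives, was present in 3.28% (2.35 to 4.44) of the "both" windows, against 1.35% (0.755 to 2.21) in RXR only, 1.17% (0.241 to 3.37) in Nur77 only, 1.05% (0.480 to 1.98) in neither and 0.652% of all starts. AGGGGGC, a core of the CTCF site, was present in 8.17% (5.13 to 12.2) of Nur77 only, against 4.18% of "both", 3.59% of RXR only, 3.95% of neither and 2.78% of all starts. The interval of "both" for TGACGTCA did not overlap those of RXR only and neither, but overlapped that of Nur77 only, and the interval of Nur77 only for AGGGGGC did not overlap that of RXR only (2.58 to 4.85) but overlapped those of "both" and neither. Of the words common in housekeeping promoters that are given next, 4 were higher than at all starts in most classes and the GC box was not. The intervals of each overlapped between classes. For the ETS and YY1 words the intervals of Nur77 only and neither included the share of all starts, as did that of RXR only for YY1. CGCATGCG, bound by NRF1, stood at 2.71%, 2.51%, 3.11% and 1.51% in the order both, RXR only, Nur77 only and neither, against 0.602% of all starts. CACGTG, the E-box, stood at 5.09%, 3.23%, 6.61% and 3.49%, against 2.22%. CCGGAAG, an ETS word, stood at 6.56%, 6.46%, 5.06% and 5%, against 4.12%. AAGATGGC, bound by YY1, stood at 3.69%, 2.69%, 1.56% and 1.98%, against 1.92%. GGGGCGGGG, a GC box, stood at 2.71%, 3.68%, 3.11% and 2.91%, against 3.32%.

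Around FGFR1 summits, the receptors' own word was no more frequent where a receptor peak was present. The windows were not centred on receptor summits. In promoter "both" peaks 53.8% of RXR and 52.7% of Nur77 summits lay within 50 bp of the FGFR1 summit, the reach of the window. The counts thus do not tell whether the word was at the receptor summit, and the windows of all starts were not matched for GC content. AGGTCA was found in 3.20% (2.28 to 4.35) of "both", 3.59% (2.58 to 4.85) of RXR only, 4.28% (2.16 to 7.53) of Nur77 only and 4.65% (3.34 to 6.28) of neither windows, against 5.05% of all starts. AAAGGTCA, the Nur77 response element, which contains AGGTCA, was found in 3 of 1219, 1 of 1115, 0 of 257 and 2 of 860 windows, against 0.369% of all starts, and 0 of 257 allows a share of up to 1.17% by the limit of 3 counts. CCAAT, bound by NFY, was at 6.32%, 5.83%, 10.1% and 6.51%, against 12.3% of all starts. A match is a description of letters, and a window without one says nothing about the receptor.

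At the level of genes, 3505 of 21924 protein-coding genes had a tract-free FGFR1 LIF peak at a promoter, which is 16%. A "both" peak was present at 1328 genes (6.06%), an RXR only peak at 1197 (5.46%), a Nur77 only peak at 279 (1.27%) and a neither peak at 864 (3.94%). These shares are the background for the gene groups that follow. Peaks of more than 1 class were found at 162 genes, 4.62% of the 3505, so a gene usually had a single class. Of the 864 genes with a neither peak, 57.4% had an RXR or a Nur77 peak elsewhere within the promoter window. RXR was at 51.2% and Nur77 at 29.4% of these 864 genes, beside 41.6% and 24.4% of all protein-coding genes. Among the 3505 genes with an FGFR1 peak of any class the shares were 84.5% and 60.4%. A further 221 genes had only a tract peak at the promoter.

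Of the 17 genes in the list for the CREB and CBP system, 8 (47.1%) had a tract-free FGFR1 promoter peak, against 16% of all genes. Most of these 8 were in "both". A count of 5 (29.4%) had a "both" peak, against the background of 6.06%, and 2 had an RXR only peak. They were Creb1, Crem and Atf4, transcription factors of the CREB and ATF families, Crtc1, a CREB coactivator, and Prkacb, a catalytic subunit of protein kinase A. At Creb1 −log10 p was 14.3 for FGFR1, 9.01 for RXR and 7.82 for Nur77, with the FGFR1 summit 25 bp downstream of a start. At Atf4 it was 9.38, 11.8 and 13.0 in the same order, and at Crtc1 15.2, 15.3 and 12.9. Prkacb had 11.5, 12.2 and 16.1. The acetyltransferases Crebbp (CBP) and Ep300 (p300) were in RXR only, Crebbp with 9.37 for FGFR1 and 7.57 for RXR. Camk2d, a calcium/calmodulin kinase, was in neither with 7.66. All 8 genes had their FGFR1 peak in both RA libraries, as did 70.7% of all tract-free promoter peaks and 85.2% of those in "both".

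Genes of the FGF and ERK pathway were spread over all classes. Of 31, 11 (35.5%) had a tract-free FGFR1 peak, against 16% of all genes. There were 3 in "both", 4 in RXR only, 2 in Nur77 only and 3 in neither, with Spry4 in more than 1. The receptor gene Fgfr1 itself had a weak FGFR1 peak of −log10 p 6.12 beside stronger RXR (13.2) and Nur77 (16.7) peaks, its summit 34 bp downstream of a start. Fgf4, the ligand of the pathway in ESCs, had an FGFR1 peak of 12.9 without a receptor peak. Among adaptors, Grb2 had 16.6 for FGFR1, 12.8 for RXR and 9.89 for Nur77, and Ptpn11, the phosphatase SHP2, was in RXR only with 9.30 and 12.6. Among the kinases, Braf was in "both" (13.7 for FGFR1), Map2k1 in RXR only (11.5) and Map2k2 in neither (9.28). Etv5, a target of the pathway, was in RXR only with 8.74. Of the genes named here, Braf lacked a peak in RA replicate 2, and the 2 Spry4 peaks were absent from replicate 1 and 1 of them also from replicate 2.

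Pluripotency genes had FGFR1 peaks at about the share of all genes. Of the 15 genes of the core list 3 had a tract-free promoter peak, which is 20% against 16% of all genes. Tfcp2l1, a naive-state transcription factor, was in "both" with −log10 p of 16.6 for FGFR1, 20.9 for RXR and 14.8 for Nur77. Suz12, a polycomb subunit, was in "both" with 8.79, 13.8 and 7.41. Ep300 was the remaining member. Of 20 genes of the LIF pathway and the naive state, Klf2 was in RXR only (14.4 for FGFR1 and 13.0 for RXR) and Nr0b1 in Nur77 only (9.87 and 5.20). Of 26 retinoid and Nur receptor, metabolism and cofactor genes, a peak was present at Rxrg alone, in "both" with 7.58, 10.6 and 11.6, while RXR was at 16 of them and Nur77 at 6, beside 41.6% and 24.4% of all protein-coding genes.

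Splicing factors had "both" and RXR only peaks more often than all genes did, and proteasome subunits had RXR only peaks more often. A tract-free peak of any class was at 44.2% of splicing and 35.4% of proteasome genes, against 16% of all genes. RXR itself was at 35 of 52 splicing and 33 of 48 proteasome genes, beside 41.6% of all protein-coding genes. Of 52 splicing genes 11 (21.2%) had a "both" peak, 12 (23.1%) an RXR only peak and 3 (5.77%) a neither peak. The backgrounds were 6.06%, 5.46% and 3.94% in the same order, so neither was the lowest of these among all genes too. Hnrnpk, an RNA-binding protein of the hnRNP family, had 19.8 for FGFR1 and 11.4 for RXR, and Srsf2, a serine and arginine rich splicing factor, had a "both" peak of 18.5. Of 48 proteasome genes 10 (20.8%) had an RXR only peak, against a background of 5.46%. A "both" peak was present at 4 (8.33%, background 6.06%) and a neither peak at 4 (8.33%, background 3.94%). Psmd12, a subunit of the regulatory particle, had 15.3 for FGFR1 and 14.1 for RXR. The Nur77 only class held 0 genes of either list, near its background of 1.27%.

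Genes of the mitochondria and of the ribosome had a peak more often than the 16% of all genes, and followed no single class. The respiratory chain had 30 of 89 genes with a peak (33.7%), 11 in "both", 10 in RXR only, 1 in Nur77 only and 8 in neither. Among all genes the class shares were 6.06%, 5.46%, 1.27% and 3.94% in the same order. Mitochondrial ribosomal proteins had 24 of 75 (32%), with 7, 8, 4 and 6 in that order. Cytosolic ribosomal proteins had 23 of 82 (28.0%), with 9, 7, 0 and 8. Genes of replication licensing and the cell cycle had 11 of 40 (27.5%), of which 7 (17.5%) were in "both". Among them Ccnb1, encoding cyclin B1, had 29.2 for FGFR1, 6.54 for RXR and 15.9 for Nur77, while Cdk1, its kinase partner, was in neither with 11.4. Polycomb had 6 of 24 genes (25%), with Ezh1 in "both" and Ezh2 in Nur77 only, and CTCF and cohesin had 5 of 13 (38.5%). Zfp genes were near the background with 60 of 365 (16.4%). Hox genes had 3 of 39 (7.69%) and neural lineage genes 1 of 20 (5%, Pou3f2). Immediate early factors had 2 of 13 (15.4%, Jund and Ier2), and olfactory receptors 2 of 1092 (0.183%).

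**Figure D4:**
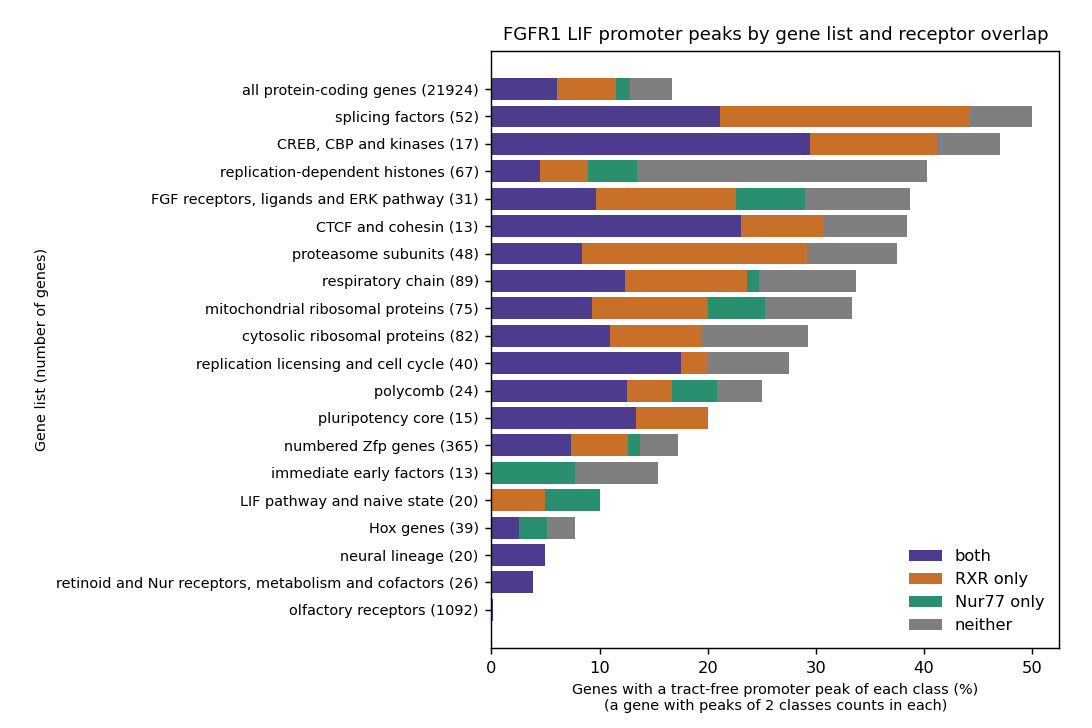
Share of the genes of each list (horizontal axis, %; number of genes in brackets) with a tract-free promoter FGFR1 LIF peak, divided by receptor class; a gene with peaks of more than 1 class counts in each. Among histone genes 18 of 67 had a neither peak, and among CREB and CBP genes 5 of 17 had a "both" peak.

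Replication-dependent histone genes, whose messages are made in S phase and are not polyadenylated, were the exception among the lists. Of 67 genes 18 (26.9%) had a neither peak, against a background of 3.94%, and 3 each had a "both", an RXR only and a Nur77 only peak. Neighbouring histone genes share peaks, and the 23 genes rested on 28 separate peaks, of which 19 were in neither. RXR was at 9 and Nur77 at 10 of the 67 genes, beside 41.6% and 24.4% of all protein-coding genes. Hist1h4d, encoding histone H4, had an FGFR1 peak of 39.8 and Hist1h1b, encoding a linker histone, one of 53.3, with the summit 987 bp downstream of its start. Hist4h4 was in "both" with 48.4 for FGFR1, 18.3 for RXR and 30.9 for Nur77. Of the 19 neither peaks 11 were in FGFR1 RA replicate 1 and 16 in replicate 2, 18 were in at least 1 of them, and none was in the H3.3 list.

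Small nuclear and nucleolar RNA genes were a second such group, noticed after the values were seen. A tract-free FGFR1 summit lay within 250 bp of such a start in 20 neither peaks, 1.00% (0.613 to 1.54) of the class, and in 4 "both", 5 RXR only and 2 Nur77 only peaks. The interval of neither overlapped those of RXR only (0.121 to 0.865%) and Nur77 only (0.0550 to 1.63%) and did not overlap that of "both" (0.0638 to 0.598%). Among the neither peaks, 13 had a −log10 p of at least 20, of which Gm25939 had 85.8, Rnu3a (U3) 74.2, Snord118 (U8) 66.6, Rnu11 (U11) 54.2 and Rnu12 (U12) 53.0. Their summits lay 7 to 223 bp downstream of the start, with a median of 154 bp, and 3 lay past the gene's end. No called RXR summit was closer than 1117 bp to them and no Nur77 summit closer than 255 bp. Of the 13, 9 were found in FGFR1 RA replicate 1 and all 13 in replicate 2, and none in the RXR, Nur77 or H3.3 lists from RA. Reads that matched the genome at more than 1 place had been dropped, so near-identical copies of these genes could lose reads, and the effect was not tested.

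The strongest tract-free peak of the neither class and the strongest RXR only peak at a small RNA gene outside untranslated exons show 2 such genes, with AGGTCA in capitals where it occurs.
Gm25939, neither, chr1:72255181-72255281: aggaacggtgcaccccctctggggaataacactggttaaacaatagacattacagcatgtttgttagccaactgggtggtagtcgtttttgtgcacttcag
Gm22973, RXR only, chr12:59040259-59040359: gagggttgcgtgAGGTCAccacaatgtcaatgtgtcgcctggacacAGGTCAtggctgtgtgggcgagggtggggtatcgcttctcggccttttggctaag
The Gm22973 summit lay 26 bp upstream of the start, with −log10 p values of 32.5 for FGFR1 and 16.04 for RXR. The Gm25939 summit lay 223 bp downstream of the start, past the end of the gene.

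Together these genes made up most of the strongest promoter peaks without a receptor. Of the 20 strongest tract-free promoter peaks in neither, 10 were at small RNA and 4 at histone genes. In RXR only 5 of 20 were at one or the other, in Nur77 only 4 and in "both" 2. In "both", 8 of the 20 were instead over 50% repeat-masked and 3 were on chromosome M.

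The protein-coding genes with the strongest promoter peak of each class, 6 per class, follow the same division. In "both" they were mt-Nd1 and mt-Nd5, mitochondrial genes of respiratory complex I, the predicted gene Gm10800, Setd2, a histone H3 methyltransferase, Sfi1, a centrosomal protein, and Hist4h4. The FGFR1 −log10 p was 133 at mt-Nd1 and 71.7 at Setd2, and the Gm10800 and Setd2 peaks were 92.7% and 92.0% repeat-masked. The mt-Nd1 summit lay in mt-Rnr2, nearest to the mt-Tl1 start, and the mt-Nd5 summit in mt-Nd4, nearest to the mt-Th start. RXR and Nur77 had 106 and 151 at mt-Nd1, and 82.7 and 85.0 at Sfi1, where FGFR1 had 56.7. The mt-Nd1, Gm10800, Sfi1 and Hist4h4 peaks were in all 5 RA lists. The mt-Nd5 peak was absent from H3.3 and the Setd2 peak from FGFR1 replicate 2. Whether these peaks reflect binding at the named genes was not tested. In RXR only they were Pkp2, a desmosomal protein (93.1 for FGFR1 and 12.1 for RXR), the linker histone gene Hist1h1c, Grcc10, whose summit lay 189 bp from the start of Rnu7, Gtf2a1, a subunit of the general factor TFIIA (40.9 and 14.8), Glul, glutamine synthetase (31.8 and 9.99), and Tob1, an antiproliferative protein (26.9 and 12.0). In Nur77 only they were Hist1h3e (24.5 for FGFR1 and 8.997 for Nur77), Gadd45a, a stress-induced growth arrest gene (20.6 and 9.39), Nfkbiz, an IκB family protein (19.8 and 7.18), Alkbh5, an RNA demethylase (19.5 and 7.54), Trmt12, a tRNA-modifying enzyme, and Rab3gap1, a regulator of Rab proteins. In neither they were Gtf3c6, Hist1h1b, Poldip3, Hist1h4d, Tti2 and Clasp1. Of these, Gtf3c6 shared its peak with Rnu3a, Poldip3 with Rnu12, Tti2 with Snord13 and Clasp1 with the small nuclear RNA gene Gm22710, each nearer to the summit than the protein-coding start.

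The RA libraries, which were not used to form the classes, were searched for peaks at the same places. Tract-free "both" peaks were found again in 93.6% (92.3 to 94.7) of cases in FGFR1 replicate 1 and 69.1% (66.9 to 71.3) in replicate 2, RXR only in 81.4% and 74.3%, Nur77 only in 66.7% and 50.3%, and neither in 35.4% and 33.7%. As means these were 81.3% ± 17.3, 77.9% ± 5.04, 58.5% ± 11.5 and 34.5% ± 1.24 (SD, n = 2). The order of "both" and RXR only was within the spread of the 2 libraries, since replicate 2 had RXR only above "both". With a −log10 p of at least 10 in the 3 LIF lists, the means became 74.9%, 84.5%, 76.2% and 53.3% in the same order of classes. There "both" was below Nur77 only, and neither was still lowest. The classes and the RA overlaps both rested on at least 1 bp of the whole peak. Median widths of tract-free peaks were 173, 144, 132 and 120 bp in the order both, RXR only, Nur77 only and neither. The part that peak width had in the RA shares was not tested.

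At promoters the 2 libraries were closer to each other in every class except neither. The means were 91.9% ± 3.54 for "both", 85.8% ± 0.444 for RXR only, 79.6% ± 0.825 for Nur77 only and 62.7% ± 8.22 for neither (SD, n = 2). The neither class was lowest in both libraries, with 56.9% (53.5 to 60.2) in replicate 1 and 68.5% (65.3 to 71.6) in replicate 2. FGFR1 strength moved with this share. Among neither promoter peaks it was 46.3% in the weakest and 75.8% in the strongest of the 4 groups of −log10 p in replicate 1, and 59.3% and 86.3% in replicate 2. Off promoters the replicates diverged, with "both" at 91.4% in replicate 1 and 18.6% in replicate 2, and neither at 19.2% and 7.30%. Tract peaks of "both" were found in 85.6% of cases in replicate 1 and 1.58% in replicate 2, which held hardly any tract peaks.

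Of the other RA lists, RXR overlapped 58.6% of the "both", 40.5% of the RXR only, 31.5% of the Nur77 only and 14.4% of the neither promoter peaks. Nur77 overlapped 64.7%, 37.6%, 32.3% and 16.6%, and H3.3 45.4%, 26.5%, 19.8% and 9.30%. The Nur77 list from RA thus covered RXR only and Nur77 only promoter peaks to a similar degree, with intervals of 34.7 to 40.5% and 26.6 to 38.4%. Tract-free peaks in none of the 5 RA lists were 1.05% of "both", 6.32% of RXR only, 15.4% of Nur77 only and 47.2% of neither.

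**Figure D5:**
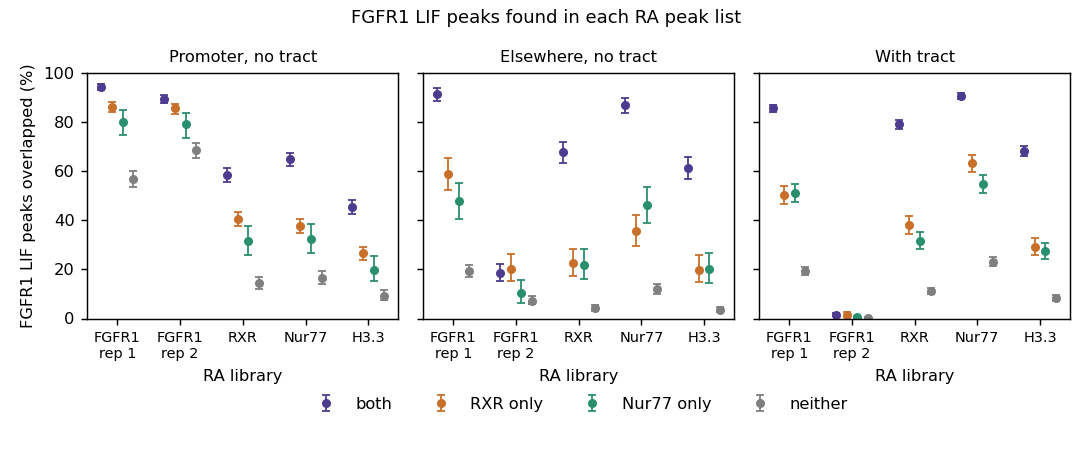
Share of the FGFR1 LIF peaks of each receptor class (vertical axis, %) that overlapped a peak of each RA library (horizontal axis), for promoter peaks, other peaks without a tract and tract peaks; bars are exact 95% intervals for counting error. At promoters neither was lowest in all 5 libraries (56.9%, 68.5%, 14.4%, 16.6% and 9.30%), and with a tract FGFR1 replicate 2 stood near 0 for all classes.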

How the data were processed

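ChIP-seq reads of 8 libraries were aligned by the authors to mm10 with Bowtie 1.0, dropping reads that matched at more than 1 place, and peaks were called per library with MACS2 at a p limit of 1e-05. No control library is named. The deposited lists give for each peak a score (10 times the −log10 p, without decimals), a fold, the −log10 p and the −log10 q of the summit, and the summit position. The fold is the ratio of summit pileup to local background, each with 1 added. The score and −log10 q were not needed. Other columns of per-sample values numbered 0, and no authors' comparison was used.

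Groups were read from the sample titles. Scripts in Python 3.11.15 (numpy 2.4.6, pandas 2.3.3, scipy 1.17.1, matplotlib 3.10.9) matched peaks by 1 bp, assigned promoters by an overlap of at least 20 bp with 1000 bp either side of 141767 GENCODE M21 transcript starts, and found alternating runs of 20 bp or more in the GRCm38 sequence (the same assembly as mm10). The summit scripts were tested on simulated data. The lists do not state depth, so the fold and −log10 p of a peak were solved together for whole fragments and a background under the Poisson tail of MACS2, which was possible within 0.002 for 100% of peaks. Shares carry exact Clopper-Pearson intervals at 95%, and medians quartiles. Overlapping genes and gene families were not resolved: a peak counts for every gene whose promoter it reaches.

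The classes, gene lists, words and measures were chosen with earlier results of these data known. Named genes were the 6 protein-coding genes per class with the strongest tract-free promoter peaks (1 gene per peak, that with the nearest start), the strongest tract peaks, and list members with a peak. Some items that these rules would name are not reported here. Printed windows leave out chromosome 18, chromosome M, untranslated exons and peaks sharing a 24-base word with the rRNA region of chromosome 17. Alternatives were an overlap of 50% of the shorter peak, summits within 100 bp, a −log10 p of at least 10, 11378 peaks per list, runs of at least 16 bp, promoters of 500 bp, protein-coding starts only, chromosomes 1 to 19, X and Y, leaving out each FGFR1 RA library, and, added after seeing the data, leaving out chromosome M and peaks over 50% repeat-masked.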

Additional observations from a re-analysis of the deposited data

How the results depend on the processing

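Of 140 alternative values 52 moved by less than their interval or spread and 88 by more. None moved on chromosomes 1 to 19, X and Y only. The order of the class shares was kept in 5 of 5 alternatives, of the promoter shares in 6 of 9, of the tract shares in 1 of 6 and of the RA shares in 3 of 6. For the tract-free median −log10 p, both stayed highest and neither lowest in 4 of 4. The causes of the moves were not tested.

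Values that moved follow in the order both, RXR only, Nur77 only and neither unless a class is named, and promoter share, −log10 p and distance refer to tract-free peaks. With an overlap of at least 50% of the shorter peak, class shares became 30.8% (both) and 41.4% (neither), promoter shares 68.6% (both) and 47.7% (neither), tract shares 59.4% (both), 59.0% (Nur77 only) and 51.1% (neither), the median −log10 p of both 12.6, and median distances 34 bp (FGFR1 to RXR), 31 bp (FGFR1 to Nur77) and 35 bp (RXR to Nur77) in both and 38 bp in RXR only. With summits within 100 bp, class shares became 27.7% (both), 11.8% (Nur77 only) and 42.3% (neither), promoter shares 66.4% (both), 67.1% (Nur77 only) and 49.7% (neither), and tract shares 61.1%, 37.4%, 55.6% and 50.6%. With a −log10 p of at least 10 in the 3 LIF lists, class shares became 30.9%, 16.99%, 9.63% and 42.5%, promoter shares 52.5%, 85.7%, 68.9% and 56.2%, tract shares 71.6%, 48.6%, 68.3% and 61.8%, median −log10 p 16.2, 12.8, 12.5 and 11.8, distances in both 27, 23 and 24 bp (same order of pairs), and mean RA shares 84.5% (RXR only), 76.2% (Nur77 only) and 53.3% (neither). With 11378 peaks in each LIF list, class shares became 21.8% (both), 13.1% (RXR only) and 54.6% (neither), promoter shares 52.8%, 86.8%, 72.8% and 57.6%, tract shares 70.2%, 43.8%, 57.9% and 45.1%, median −log10 p 14.9, 10.7, 10.6 and 9.66, distances in both 28, 26 and 26 bp, and mean RA shares 85.5% (RXR only), 76.9% (Nur77 only) and 50.7% (neither).

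With runs of at least 16 bp, promoter shares became 63.4% (Nur77 only) and 46.7% (neither) and tract shares 57.5%, 37.1%, 65.7% and 57.8%. Promoters of 500 bp gave 69.0% (both), 80.6% (RXR only) and 38.4% (neither), and protein-coding starts only gave 67.7%, 79.0%, 51.9% and 36.1%. Without chromosome M and peaks over 50% repeat-masked, promoter shares became 85.5%, 87.5%, 72.1% and 49.4%, the median −log10 p 11.2 (both) and 9.33 (neither), distances in both 46, 43 and 47 bp, and the mean RA share of neither 38.8%.

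With each FGFR1 RA library left out in turn, the tract-free RA shares ranged from 69.1% to 93.6% (both), 74.3% to 81.4% (RXR only), 50.3% to 66.7% (Nur77 only) and 33.7% to 35.4% (neither). No paired analysis was possible because each LIF factor had 1 library and no result came from a test. Depth was inferred from the deposited values and differed between the factors, which limits any reading of a peak that was not called.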
